A study of Mus musculus with 6 samples.

Results

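Axons are steered by secreted and cell-surface proteins, and the genes for these ligands and their receptors were followed in mouse inner ear organoids grown with or without a MEK inhibitor. The genes were taken by name: every semaphorin, plexin, neuropilin, Slit, Robo, ephrin, Eph receptor, netrin, Unc5 and Dcc gene, and every gene of the FLRT, LRRTM and SLITRK families of leucine-rich repeat adhesion proteins, that the authors' table lists. That gave 38 of 4994 listed genes, with 16 ligands, 18 receptors and 4 adhesion proteins. The GENCODE annotation of the mouse genome holds 86 protein-coding genes whose names fit, and the others are not analysed here. The organoids are free-floating cultures of wild-type (WT) epithelial cells. The 3 DMSO samples are from organoids given the solvent for 10 days. The 3 PD samples are from organoids given PD0325901 at 1 µM in the same volume, also for 10 days. PD0325901 blocks MEK1 and MEK2, the kinases that activate ERK. Both groups also received growth factors, namely 20 ng/mL EGF, 10 ng/mL bFGF and 50 ng/mL IGF, together with 3 µM of the GSK3 inhibitor CHIR99021. The labels give no age or strain of the donor animals. Whether the replicates came from separate cultures is also not stated, so p-values speak only of the variation among these 6 samples, possibly technical.

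Every listed gene had been selected by the authors on these same samples, and in the authors' deposited table the smallest fold between groups was 1.499 and the largest adjusted p 0.0499. Counts of called genes below are thus not independent evidence that guidance genes respond. Values are the deposited normalized signal, whose scale is not stated, and RNA was measured from whole cultures, so fewer cells of a type and less RNA per cell cannot be told apart. Differences are PD minus DMSO on log2(value + 1), with the standard error (SE) from limma, a linear model fitted to all 4994 genes. A gene is called higher or lower at a Benjamini-Hochberg adjusted p under 0.05 over all 4994 genes. Group means are given with the SD over n = 3 samples.

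Guidance proteins attract or repel a growing axon tip by acting on its actin and microtubules. Slits signal through Robo receptors, semaphorins through plexins, often with a neuropilin as the ligand-binding partner, ephrins through Eph receptor kinases, and netrins through Dcc and Unc5 proteins. Many of these pairs also act outside axons, in cell sorting, epithelial boundaries and vessel growth. In the inner ear, Eph receptors and ephrins, semaphorins and plexins, and Slits and Robos have been studied for the path and targeting of spiral and vestibular ganglion neurites, and several are made by the epithelium itself. FLRT, LRRTM and SLITRK proteins are membrane proteins of adhesion and synapse formation.

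Among the 38 guidance genes, 25 were higher in PD, 12 were lower and 1, Dcc, was not called. Across all listed genes 44.5% were higher, 51.1% lower and 95.5% called in either direction. The guidance genes had a median log2 difference of 0.67 against -0.42 for all listed genes, and ranged from -3.48 to 3.58. Receptors carried most of the rises, with 14 higher, 3 lower and 1 not called and a median of 0.83. Ligands were split, with 8 higher and 8 lower and a median of -0.04. Of the 4 adhesion proteins 3 were higher and 1 lower, with a median of 0.50. The 3 PD samples lay wholly above the DMSO samples for 25 guidance genes and wholly below for 12, and the groups overlapped for 1, Plxna1. Among all listed genes 95.2% had groups that did not overlap.

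**Figure D1:**
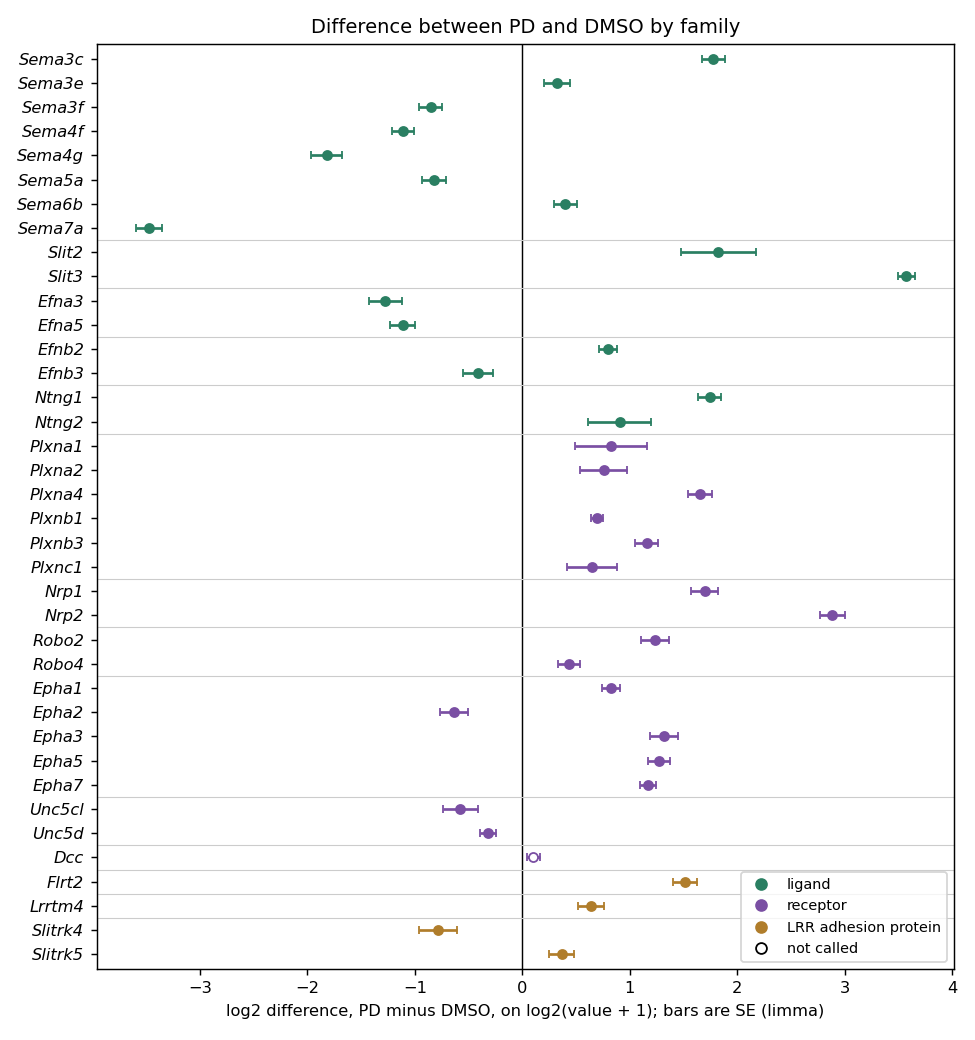
Log2 difference between PD and DMSO organoids for each of the 38 guidance genes, on log2(value + 1), with bars for the SE from limma and lines between families. Plexins, neuropilins, Robos and Slits all sit to the right of 0, while ephrin-A and Unc5 genes and 5 of the 8 semaphorins sit to the left.

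**Figure D2:**
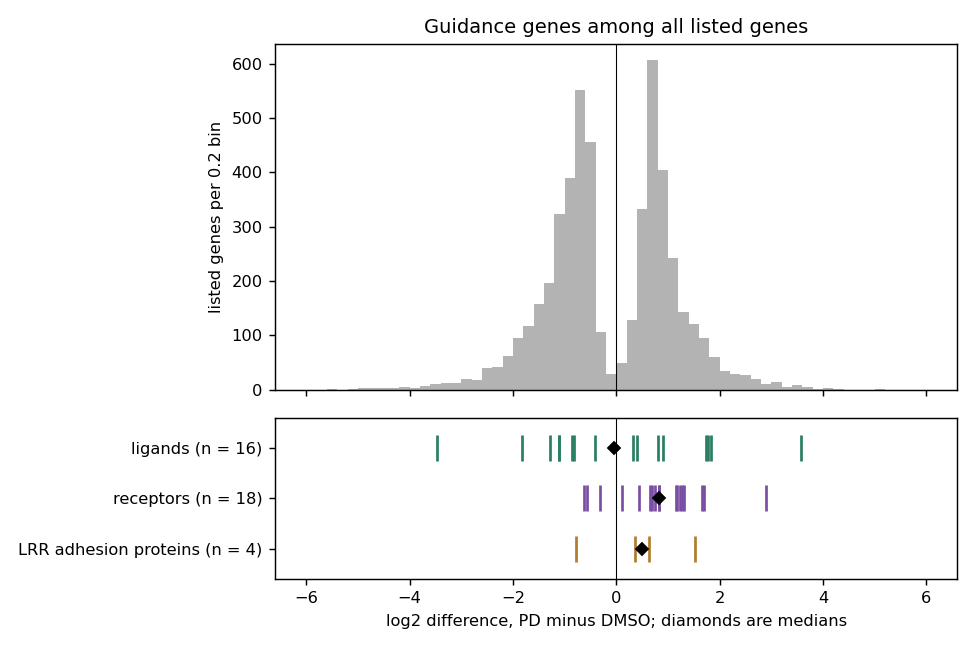
Upper panel, number of listed genes by log2 difference in bins of 0.2. Lower panel, 1 mark per guidance gene, with the median of each class as a diamond at -0.04 for ligands, 0.83 for receptors and 0.50 for adhesion proteins. The table lists selected genes, and few lie near 0.

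On the log2(value + 1) scale Slit3 showed the largest rise among the guidance genes and Sema7a the largest fall. The order of the rises depends on that scale, since the ratio of group means was 58.7 for Lrrtm4, whose values were low, 18.3 for Nrp2 and 13.6 for Slit3. Slit2 and Slit3 each carry a microRNA gene of the miR-218 family between exons on the host's own strand. Mir218-1 lies at chr5:48223942-48224051 in Slit2 and Mir218-2 at chr11:35616816-35616925 in Slit3 (GRCm38.p6, plus strand). The mature sequences below are from RefSeq, 5′ to 3′, with the seed (bases 2 to 8) in capitals. They are shown because both Slit hosts rose and carry the same microRNA family. Robo2, which also rose, carries Mir691 between exons on its own strand, and that sequence is not shown. The microRNAs themselves were not measured here.
miR-218-5p, the same from Mir218-1 and Mir218-2: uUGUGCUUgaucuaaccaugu
miR-218-1-3p, from Mir218-1 in Slit2: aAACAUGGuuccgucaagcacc
miR-218-2-3p, from Mir218-2 in Slit3: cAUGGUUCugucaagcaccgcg
The 5′ arms are identical, while the 3′ arms differ in their seeds.

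The 250 bases before the RefSeq start are shown for Slit3, for its family partner Slit2, for Nrp2, which had the next largest rise on that scale, and for Sema7a (RefSeq, GRCm38.p6, all on the plus strand). Capitals mark matches on either strand to the 5 motifs searched, which were CCGGAA for ETS factors, TGANTCA for AP-1, CTTTGA for TCF/LEF, GGGCGG for the GC box and TATAAA for the TATA box.
Slit3, chr11:35121206-35121455: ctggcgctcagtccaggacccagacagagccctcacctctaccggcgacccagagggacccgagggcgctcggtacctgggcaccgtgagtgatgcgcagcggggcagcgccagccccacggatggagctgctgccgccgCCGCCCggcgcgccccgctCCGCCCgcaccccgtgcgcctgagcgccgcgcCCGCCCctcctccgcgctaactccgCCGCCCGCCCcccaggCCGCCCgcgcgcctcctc
Slit2, chr5:47982905-47983154: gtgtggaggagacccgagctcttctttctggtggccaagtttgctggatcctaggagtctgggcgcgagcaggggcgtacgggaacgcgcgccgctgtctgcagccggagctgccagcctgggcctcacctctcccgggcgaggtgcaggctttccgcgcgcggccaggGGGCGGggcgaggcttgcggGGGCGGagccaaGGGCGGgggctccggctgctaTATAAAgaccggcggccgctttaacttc
Nrp2, chr1:62703067-62703316: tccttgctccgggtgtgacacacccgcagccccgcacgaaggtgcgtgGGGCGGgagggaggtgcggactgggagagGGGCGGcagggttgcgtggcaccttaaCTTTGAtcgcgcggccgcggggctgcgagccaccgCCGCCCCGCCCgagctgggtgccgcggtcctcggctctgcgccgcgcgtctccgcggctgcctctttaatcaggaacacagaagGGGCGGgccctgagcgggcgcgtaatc
Sema7a, chr9:57939862-57940111: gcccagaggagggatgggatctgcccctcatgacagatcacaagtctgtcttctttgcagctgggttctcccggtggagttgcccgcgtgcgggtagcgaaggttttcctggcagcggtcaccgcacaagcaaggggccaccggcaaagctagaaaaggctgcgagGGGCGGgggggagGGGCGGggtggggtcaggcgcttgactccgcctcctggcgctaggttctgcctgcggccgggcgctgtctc
The Slit3 window held 6 GC boxes, of which a neighbouring pair overlap, and the Slit2 window held 3 GC boxes and 1 TATA box. Nrp2 had 5 GC boxes and 1 TCF/LEF match, and Sema7a had 2 GC boxes. RefSeq and GENCODE place these starts differently: most of the Slit3 window, and the last bases of the Slit2 and Nrp2 windows, lie inside the gene as GENCODE draws it. GC content was 78.8% in the Slit3 window, 69.6% in Slit2, 72.4% in Nrp2 and 66.4% in Sema7a. RefSeq windows matched 31 of the 38 guidance genes, at 37 starts. A GC box lay in 70.3% of these starts, against 32.7% of all 32851 windows of that length, and median GC content was 64.4% against 52.4%. The ETS motif was in 5.41% of the guidance gene windows and 12.03% of all, AP-1 in 2.70% and 6.75%, TCF/LEF in 10.8% and 13.8%, and the TATA box in 8.11% and 12.4%. A match describes letters only, and binding was not measured.

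Slits are large secreted repellents. Slit3 lies at chr11:35121224-35708507 on the plus strand (mm10). Its values were 5.65, 6.68 and 6.42 in DMSO and 84.61, 82.40 and 88.92 in PD. All PD samples were far above all DMSO samples, with means of 6.25 ± 0.536 and 85.3 ± 3.32, a ratio of 13.6. The log2 difference was 3.58 ± 0.08 (SE; limma adjusted p = 1.90e-07), which ranked 10 among rises of all listed genes. Slit2, at chr5:47983138-48307733, had values of 11.69, 18.53 and 6.10 in DMSO and 35.27, 38.00 and 54.08 in PD. The groups were apart, but the DMSO samples were widely spread, from the lowest in DMSO 3 to the highest in DMSO 2. Slit2 rose by 1.82 ± 0.35 on the log2 scale (limma adjusted p = 0.00161), and by 1.44 to 2.17 when each sample was left out in turn.

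Semaphorins share an extracellular sema domain and are secreted, membrane-spanning or anchored by a lipid. Of the 8 listed, 3 were higher and 5 lower, with a median log2 difference of -0.84. Sema7a, at chr9:57940112-57962865, is anchored by glycosylphosphatidylinositol and signals through integrins and plexin C1. It read 14.84, 15.03 and 16.06 in DMSO and 0.60, 0.39 and 0.41 in PD. The DMSO mean of 15.3 ± 0.656 was 32.8 times the PD mean of 0.467 ± 0.116, with no overlap. The log2 difference of -3.48 ± 0.12 (limma adjusted p = 7.73e-07) ranked 32 among falls of all listed genes.

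Secreted class 3 semaphorins moved in opposite directions. Sema3c, at chr5:17574281-17730268, binds both neuropilins and read 8.18, 9.58 and 10.35 in DMSO and 35.46, 31.68 and 36.23 in PD. Every PD sample was above every DMSO sample, and the difference was 1.78 ± 0.11 (limma adjusted p = 5.12e-06). Sema3f, a ligand of Nrp2, read 100.63, 127.87 and 120.35 in DMSO and 66.55, 57.37 and 67.44 in PD. It was lower in all PD samples, with a difference of -0.85 ± 0.10 (limma adjusted p = 1.63e-04). Under median-of-ratios scaling, whose factors rest only on the genes the authors selected, the Sema3f difference was -0.50, still called. Sema3e, which binds plexin D1 without a neuropilin, averaged 0.877 ± 0.191 in DMSO and 1.35 ± 0.208 in PD, a difference of 0.33 ± 0.12 (limma adjusted p = 0.0333). Its call was lost without DMSO 1 (adjusted p = 0.0995), DMSO 3 (0.0870), PD 1 (0.0876) or PD 2 (0.0836), and with a pseudocount of 0.1 (0.0510), while median-of-ratios scaling gave 0.51 and kept it.

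Of the 4 membrane-spanning semaphorins listed, 3 fell and 1 rose. Sema4g read 20.31, 24.33 and 25.71 in DMSO and 5.90, 6.92 and 4.96 in PD. The groups lay well apart, and the DMSO mean was 3.96 times the PD mean, a difference of -1.82 ± 0.14 (limma adjusted p = 1.66e-05). Sema4f read 13.36, 13.53 and 13.27 in DMSO, close together, and 5.56, 5.15 and 6.33 in PD. All PD samples were below all DMSO samples, and the difference was -1.11 ± 0.11 (limma adjusted p = 4.61e-05). Sema5a, which carries thrombospondin repeats and binds plexin B3, read 7.27, 7.61 and 6.86 in DMSO and 3.83, 3.33 and 3.85 in PD. It did not overlap between groups and differed by -0.82 ± 0.12 (limma adjusted p = 3.24e-04), or by -0.52 under median-of-ratios scaling. Sema6b was the exception and rose from a low level, from 0.123 ± 0.0513 to 0.490 ± 0.180, a difference of 0.40 ± 0.10 (limma adjusted p = 0.00682).

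Ephrin-A ligands are lipid-anchored and ephrin-B ligands span the membrane. Both listed ephrin-A genes fell. Efna5 read 19.61, 23.40 and 19.07 in DMSO and 7.95, 9.80 and 9.30 in PD. No PD sample reached the DMSO range, and the difference was -1.11 ± 0.12 (limma adjusted p = 7.67e-05). Efna3 averaged 3.95 ± 0.762 in DMSO and 1.04 ± 0.218 in PD, a difference of -1.28 ± 0.15 (limma adjusted p = 1.50e-04). Efnb2, a ligand of EphB receptors and EphA4 known from arterial vessels, read 25.05, 25.32 and 27.78 in DMSO and 44.96, 42.77 and 50.50 in PD. It was higher in every PD sample, by 0.80 ± 0.08 (limma adjusted p = 7.56e-05). Efnb3 went from 2.85 ± 0.241 to 1.91 ± 0.386, a difference of -0.41 ± 0.14 (limma adjusted p = 0.0234). The Efnb3 call depended on scaling, with -0.16 and an adjusted p of 0.286 under median-of-ratios scaling and 0.0633 under quantile normalization. It was also lost without DMSO 3 (0.0729) or PD 3 (0.0702).

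Of the netrin group only the netrin-G genes were listed. Netrin-G1 and netrin-G2 are lipid-anchored, do not bind Dcc and pair with the adhesion proteins encoded by Lrrc4c and Lrrc4. Ntng1 averaged 0.533 ± 0.0451 in DMSO and 4.14 ± 0.355 in PD, a difference of 1.74 ± 0.11 (limma adjusted p = 6.78e-06). Ntng2 read 1.36, 3.39 and 0.96 in DMSO and 4.68, 4.33 and 3.42 in PD, so that DMSO 2 lay just below PD 3 and well above the other DMSO samples. Its difference was 0.91 ± 0.29 (limma adjusted p = 0.0187). That call was lost without DMSO 1 (0.0636), DMSO 3 (0.0571), PD 1 (0.0581) or PD 2 (0.0532).

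**Figure D3:**
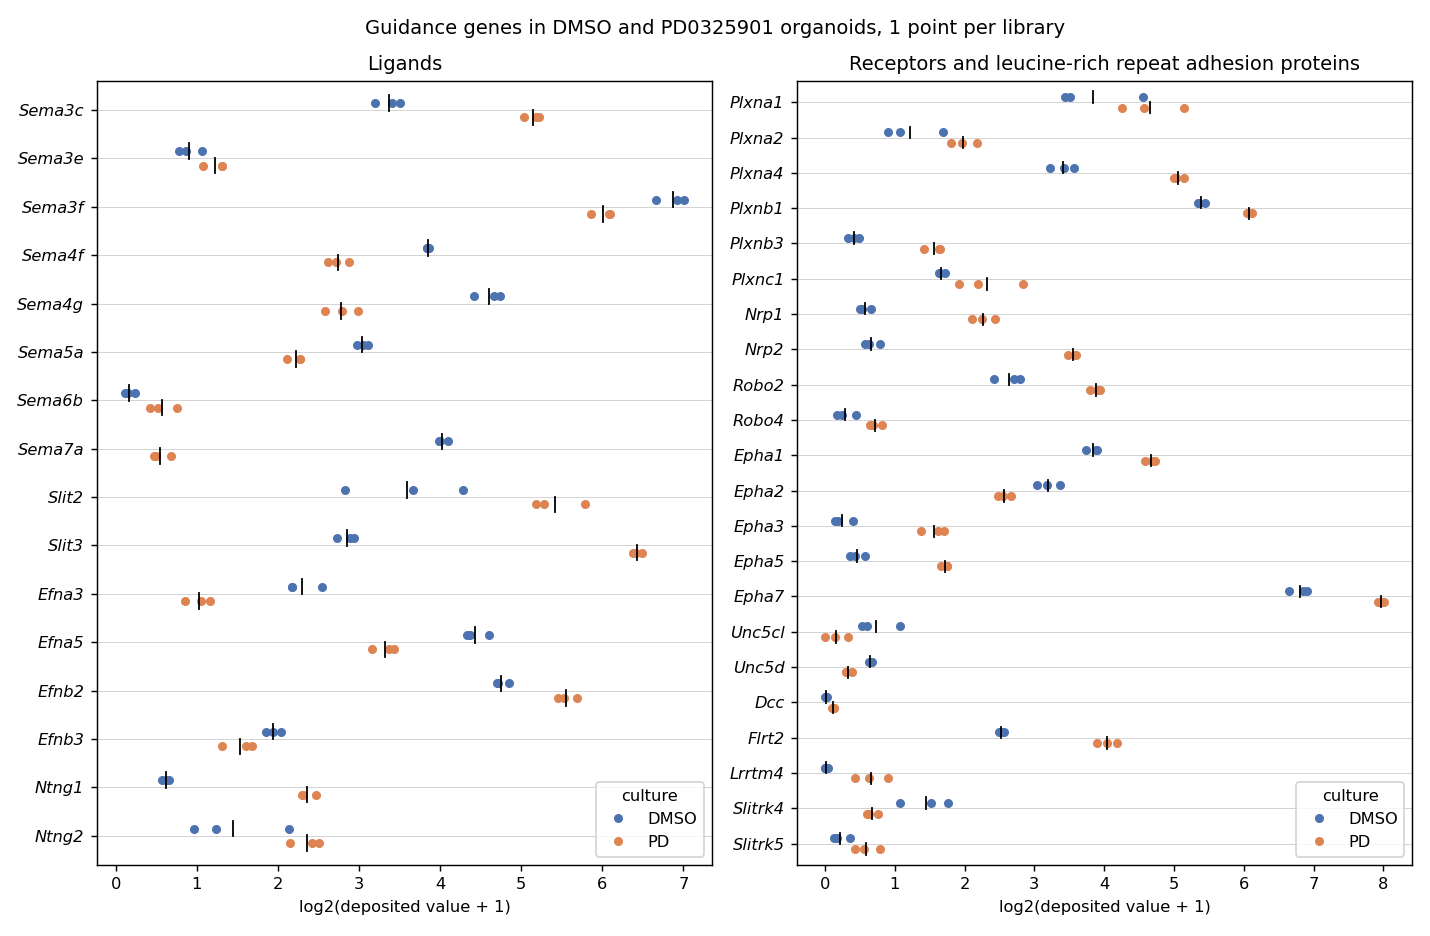
Each library's deposited value on the log2(value + 1) scale, ligands on the left, receptors and leucine-rich repeat adhesion proteins on the right, with a black bar for the mean of 3. Only Plxna1 has overlapping groups, and the widest gaps are at Slit3, Sema7a and Nrp2.

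Both listed Robos rose. Robo2, a Slit receptor of growing axons, lies at chr16:73891839-74411825 on the minus strand and read 4.33, 5.95 and 5.50 in DMSO and 14.38, 13.88 and 12.84 in PD. The PD samples were all above the DMSO samples, with a difference of 1.24 ± 0.13 (limma adjusted p = 7.16e-05). Robo4, a receptor known from endothelial cells, had low values, at 0.220 ± 0.125 and 0.643 ± 0.104, a difference of 0.43 ± 0.10 (limma adjusted p = 0.00453). Of 10 endothelial markers 4 were listed, 3 higher and 1 lower, against 44.5% higher and 51.1% lower among all listed genes. The summed level of these markers was lower in PD, at 45.8 to 49.4 in DMSO and 35.7 to 42.2 in PD. Tek, the angiopoietin receptor, fell from 35.3 ± 3.00 to 9.11 ± 0.729. Emcn rose from 11.5 ± 1.12 to 26.0 ± 2.86 and Kdr, a receptor of vascular endothelial growth factor, from 0.790 ± 0.121 to 4.28 ± 0.263. Cdh5, which encodes the endothelial cadherin, was 0 in 2 of the 3 DMSO samples and averaged 0.663 ± 0.1704 in PD. Their part in the Robo4 and neuropilin results was not tested.

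Neuropilins bind class 3 semaphorins and also vascular endothelial growth factors, and need a plexin to signal. Nrp2 lies at chr1:62703285-62818695. Its values were 0.55, 0.49 and 0.72 in DMSO and 11.08, 10.18 and 10.92 in PD. The groups were widely apart, with a PD mean of 10.7 ± 0.480 that was 18.3 times the DMSO mean. Nrp2 rose by 2.89 ± 0.12 (limma adjusted p = 1.37e-06), which ranked 43 among rises of all listed genes. Nrp1 rose from 0.480 ± 0.0872 to 3.82 ± 0.547, a difference of 1.70 ± 0.13 (limma adjusted p = 1.41e-05).

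Plexins carry a GTPase-activating domain inside the cell. All 6 listed plexins rose, with differences from 0.65 to 1.65 and a median of 0.79. Plxna4, at chr6:32144268-32588192 on the minus strand, read 8.31, 10.83 and 9.76 in DMSO and 31.70, 30.94 and 34.37 in PD, with no overlap. Its difference was 1.65 ± 0.11 (limma adjusted p = 7.59e-06), the largest of the family on the log2(value + 1) scale, although the log2 ratio of group means, with no pseudocount, was 2.59 for Plxnb3 and 1.75 for Plxna4. Plxnb1, the receptor of Sema4d, read 39.54, 39.96 and 42.56 in DMSO and 68.72, 65.77 and 64.93 in PD. Its groups were tight and separate, with a difference of 0.70 ± 0.06 (limma adjusted p = 2.76e-05), or 1.04 under median-of-ratios scaling.

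The A-class plexins pair with neuropilins. Plxna1 read 9.84, 10.37 and 22.42 in DMSO and 34.35, 22.81 and 18.01 in PD. DMSO 3 was above PD 3, so the groups overlapped. The difference of 0.82 ± 0.34 was called (limma adjusted p = 0.0457), but not without DMSO 1 (0.148), DMSO 2 (0.138), PD 1 (0.151) or PD 2 (0.0858), and not with a pseudocount of 5 (0.0536) or without the trend (0.0574). The authors' deposited table gave Plxna1 an adjusted p of 2.33e-26 at a fold of 1.72. Plxna2 went from 1.397 ± 0.715 to 2.96 ± 0.520, a difference of 0.76 ± 0.22 (limma adjusted p = 0.0114).

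Plxnb3 rose from 0.327 ± 0.0751 to 1.96 ± 0.263, a difference of 1.16 ± 0.11 (limma adjusted p = 4.31e-05). Plxnc1, the Sema7a receptor, read 2.09, 2.14 and 2.29 in DMSO and 3.55, 6.17 and 2.79 in PD. The PD samples were above the DMSO samples but spread widely, with PD 2 the highest. The difference was 0.65 ± 0.23 (limma adjusted p = 0.0268), and 0.39 without PD 2 (0.0361). Its call was lost without DMSO 1 (0.0685), DMSO 2 (0.0646) or DMSO 3 (0.0515).

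EphA receptors bind mainly ephrin-A ligands. Of the 5 listed, 4 rose and 1 fell, with a median of 1.17, and no EphB gene was listed. Epha7, at chr4:28813131-28967499, read 99.72, 118.77 and 114.34 in DMSO and 257.76, 242.75 and 249.98 in PD. Every PD sample was far above every DMSO sample, with a difference of 1.17 ± 0.07 (limma adjusted p = 6.32e-06). Epha1, known from epithelia, read 12.32, 13.81 and 13.82 in DMSO and 24.79, 22.97 and 25.42 in PD. All PD samples were above all DMSO samples, with a difference of 0.83 ± 0.09 (limma adjusted p = 6.80e-05).

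Epha3 and Epha5 rose from low levels. Epha3 averaged 0.187 ± 0.117 in DMSO and 1.96 ± 0.343 in PD, a difference of 1.32 ± 0.13 (limma adjusted p = 4.70e-05). Epha5 averaged 0.370 ± 0.101 and 2.30 ± 0.118, a difference of 1.27 ± 0.10 (limma adjusted p = 2.08e-05). Epha2, an epithelial receptor, was the EphA gene that fell, and read 7.17, 9.29 and 8.07 in DMSO and 4.83, 4.55 and 5.31 in PD. The groups were separate, with a difference of -0.63 ± 0.13 (limma adjusted p = 0.00221), or -0.32 under median-of-ratios scaling (0.0340).

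The genes of the netrin receptor families had low values. Unc5d, a repulsive netrin receptor that also binds Flrt2, went from 0.567 ± 0.0252 to 0.253 ± 0.0404, a difference of -0.32 ± 0.07 (limma adjusted p = 0.00404). Unc5cl encodes a death-domain protein named for its likeness to Unc5c and is not a known guidance receptor. It went from 0.683 ± 0.363 to 0.117 ± 0.126, a difference of -0.58 ± 0.16 (limma adjusted p = 0.00965). Without Unc5cl the 17 receptors were 14 higher, 2 lower and 1 not called. Dcc, the receptor that mediates attraction to netrin-1, read 0.02, 0 and 0.01 in DMSO and 0.09, 0.09 and 0.07 in PD, a difference of 0.10 ± 0.06 that was not called (limma adjusted p = 0.135). With a pseudocount of 0.1 the Dcc difference was 0.74 and was called (0.0139), and the authors' deposited table gave it a fold of 14.8.

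Leucine-rich repeat adhesion proteins followed no single direction. Flrt2, at chr12:95692226-95785215, binds Unc5 proteins and latrophilins and read 4.71, 4.93 and 4.62 in DMSO and 17.21, 13.85 and 15.36 in PD. It was higher in every PD sample, by 1.51 ± 0.11 (limma adjusted p = 1.39e-05). Lrrtm4, a synaptic protein that binds heparan sulfate proteoglycans, was 0 in 2 of 3 DMSO samples and 0.35, 0.86 and 0.55 in PD, a difference of 0.64 ± 0.12 (limma adjusted p = 0.00145). Slitrk4 fell from 1.79 ± 0.639 to 0.587 ± 0.0907, a difference of -0.79 ± 0.18 (limma adjusted p = 0.00344). Slitrk5 went from 0.167 ± 0.1002 to 0.510 ± 0.193, a difference of 0.37 ± 0.12 (limma adjusted p = 0.0168), and its call was lost without DMSO 3 (0.0556). SLITRK proteins act at synapses through receptor-type protein tyrosine phosphatases.

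Ligands and receptors that are known to bind each other were set side by side, each with its own difference and with no test of the pair. Slit2, Slit3 and the Slit receptor gene Robo2 were higher. Sema3c rose with Nrp1, Nrp2, Plxna2 and Plxna4, while Sema3f fell. Plxna1 was also called higher, but its groups overlapped. Sema7a fell by 3.48 as Plxnc1 rose by 0.65, although the Plxnc1 call was lost when any single DMSO sample was left out. Efna3 and Efna5 fell, while Epha1, Epha3, Epha5 and Epha7 rose and Epha2 fell. Flrt2 rose and Unc5d fell. Lrrc4c, the netrin-G1 partner, rose with Ntng1, from 2.62 ± 0.347 to 11.1 ± 0.825 (difference 1.75 ± 0.13, limma adjusted p = 1.25e-05).

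**Figure D4:**
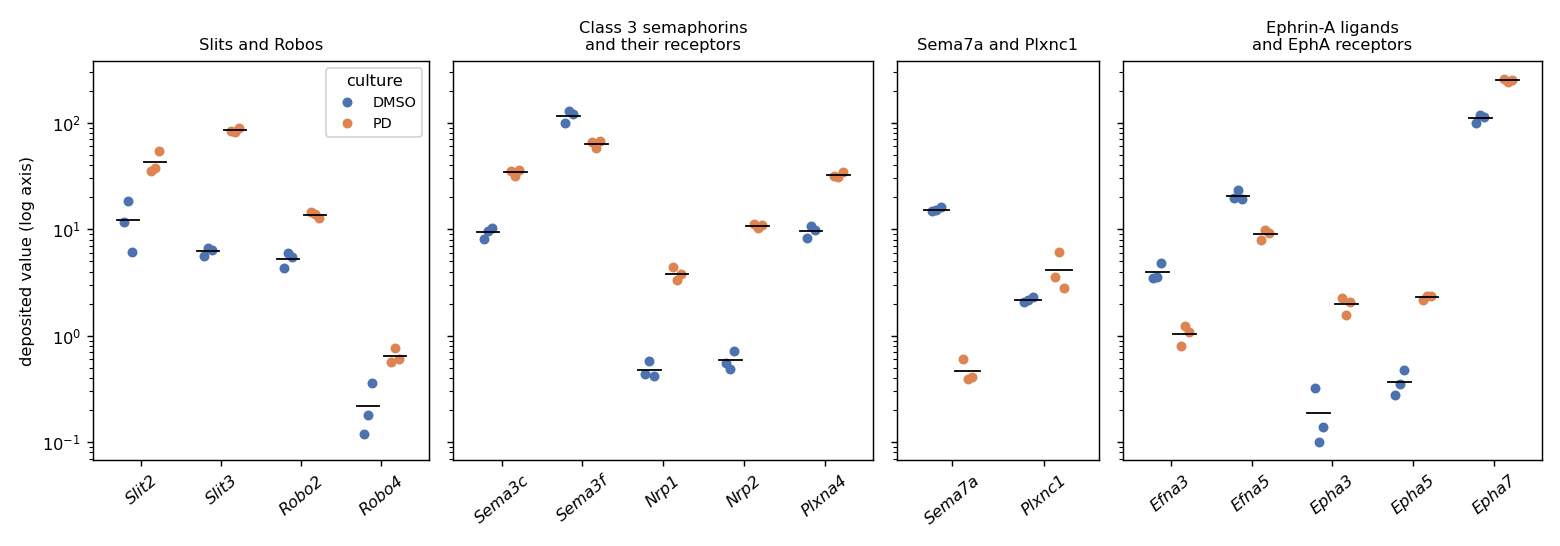
Deposited values on a log axis for 16 guidance genes in DMSO and PD libraries, grouped by family and known binding, with a bar at each mean. Slits and Robos are all higher in PD, and Sema7a and Plxnc1 move in opposite directions, as do Efna3 and Efna5 against Epha3, Epha5 and Epha7. Not all listed genes are drawn. Epha1, which rose, and Epha2, which fell like the ephrin-A genes, are left out, as are Sema3e, Plxna1 and Plxna2.

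Levels were uneven and the table rounds to 2 decimals. Only 19 guidance genes reached a mean of 5 in a group, 12 of them higher and 7 lower, and of the other 19, 13 were higher, 5 lower and 1 not called. With a value of at least 1 required in at least 3 samples, 31 of the 38 remained. For the genes below that, differences rest on low values. The rounding to 2 decimals is coarse for Dcc, at 0 to 0.09, and for Lrrtm4 in DMSO, at 0 to 0.03.

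Other genes of the pathway were counted in 3 lists, beside shares of 44.5% higher, 51.1% lower and 95.5% called among all listed genes. Of 49 co-receptors and other guidance ligands 22 were listed, with 14 (63.6%) higher, 5 (22.7%) lower and 3 not called and a median of 1.00. Rgma, which encodes a ligand of neogenin, rose from 26.9 ± 0.675 to 115 ± 5.24, while Ngfr, the low-affinity neurotrophin receptor, fell from 28.7 ± 1.505 to 0.193 ± 0.121. Of 70 intracellular effectors 22 were listed, with 15 (68.2%) higher and 7 (31.8%) lower and a median of 0.63. The Robo-binding Srgap1 rose from 6.13 ± 0.562 to 40.2 ± 1.498, and the actin-binding Ablim1 from 7.56 ± 0.920 to 93.4 ± 4.09. The last list, of 30 genes, held partners of FLRT, LRRTM and SLITRK proteins and also other adhesion genes, such as Nlgn2 and Lrrc4c. Of these 14 were listed, with 7 (50.0%) higher, 5 (35.7%) lower and 2 not called and a median of 0.31. Thus 85.7% of these 14 genes were called, below the share of all listed genes. Nlgn2, a synaptic adhesion protein, fell from 38.6 ± 1.38 to 18.9 ± 0.589.

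Lists for the treatment and for cell types were also counted, chosen with earlier results of these data known. Since every listed gene had been selected by the authors, they are not an independent check of the treatment or the cells. Among all listed genes 44.5% were higher, 51.1% lower and 95.5% called. Of 15 ERK feedback genes 13 were listed and all 13 fell, with Dusp6 going from 149.8 ± 3.58 to 12.3 ± 1.33. The list of hypoxia and glycolysis genes held 12, and all 12 were listed and fell. The epithelial adhesion gene Epcam averaged 836 ± 31.7 in DMSO and 514 ± 15.7 in PD, whereas Cdh1, which encodes the epithelial cadherin, rose from 53.6 ± 1.54 to 114 ± 9.27. Of the 9 of 12 otic epithelial markers listed 7 fell and 2 rose, and their summed level was 1984 to 2088 in DMSO and 1087 to 1146 in PD. Mesenchymal markers, 12 of 14 listed, were 8 higher, 2 lower and 2 not called, with sums of 1755 to 1930 in DMSO and 3988 to 4501 in PD. A few genes made up most of these sums, among them Lum, which went from 619 ± 42.0 to 1794 ± 132. Neuronal markers were 6 of 16 listed, 5 higher and 1 lower, with sums of 48.4 to 55.9 in DMSO and 36.4 to 42.0 in PD. The 5 that rose averaged at most 2.42 in PD, and Map2 fell from 52.5 ± 4.35 to 31.6 ± 2.75. The part of these markers in the guidance results was not tested. Schwann cell and glial markers were 3 of 10 listed, 2 higher and 1 lower, with sums of 17.1 to 20.0 in DMSO and 19.4 to 19.7 in PD. Hair cell markers were 7 of 12 listed, 4 higher and 3 lower, with sums of 34.8 to 43.8 in DMSO and 15.9 to 19.7 in PD. Most of the DMSO sum was Espn, which fell from 32.3 ± 4.62 to 2.46 ± 0.168, while Calb1 rose from 0.420 ± 0.433 to 11.6 ± 2.57. All these marker sums follow the genes with the highest values, so they do not measure amounts of a cell type. The leukocyte marker Ptprc, 1 of 7 listed, was 0 in all DMSO samples and between 0.06 and 0.21 in PD.

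Some guidance genes share exonic sequence with a neighbour. An annotated gene overlaps exons on the opposite strand for 6 of them (Efna3, Epha1, Lrrtm4, Plxna1, Plxna4 and Plxnb1) and on the same strand for 3 (Nrp1, Ntng2 and Plxnc1). The overlap covers at most 25.1% of exonic bases, in Lrrtm4. Of these neighbours 3 were listed. Gm15998, opposite Efna3, fell from 1.70 ± 0.209 to 0.797 ± 0.265, and Gm7628, opposite Plxnb1, rose from 1.04 ± 0.285 to 4.13 ± 1.51. The gene 6530402F18Rik, on the strand of Ntng2, rose from 0.443 ± 0.216 to 0.913 ± 0.280, with overlapping groups. The kit marks strand, per the labels, but how strand was set in counting is not stated, so reads of these pairs may not have been told apart.

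Summed values of listed genes were 289255 to 293278 in DMSO and 290560 to 296997 in PD, and no pair of libraries was identical. Depths are unknown.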

How the data were processed

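RNA was sequenced from 6 organoid samples with libraries made from 2 µg of total RNA. Per the submitters' processing notes, the tools were DESeq2, HTSeq, HISAT2 and Trimmomatic and the build mm10; their roles, versions and strand setting are not stated. For each gene the authors deposited the normalized signal of every sample, to 2 decimals, beside their group means, a fold (ratio) of PD over control, its log2 value, and p-values, per the file headers. The scale of the signal is not stated, so depth is unknown and no counting interval is given. The smallest value above 0 falls with exonic length, from 0.06 for genes of 300 to 1000 exonic bases to 0.01 above 4000. Because the scale is not stated, levels of single genes are not ranked against each other. The marker sums and the cut-off at a mean of 5 do treat genes as if on one scale, and share this limit. The values are not counts, so limma 3.58.1 in R 4.3.3 was used with a trend on log2(value + 1), with no filter and no block, and was tested on simulated data. Python 3.11.15 and pandas 2.3.3 did the rest. Log2 differences understate changes of genes with low values. Coordinates come from GENCODE M21 on GRCm38, and sequences from RefSeq GRCm38.p6. The members and the gene lists were chosen with earlier results of these data known. All members are named, those with a group mean of at least 5 with each sample's value; of each list, genes among the 4 with the smallest adjusted p are named, plus Epcam, chosen after its values were seen. Alternatives covered scaling, pseudocounts of 0.1 and 5, a low-value filter, a fit without the trend, the replicate number as a block, and leaving out each of 6 samples.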

Additional observations from a re-analysis of the deposited data

How the results depend on the processing

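Of the 13 alternatives tested, the low-value filter gave a value for 31 guidance genes and the others for all 38. Every guidance gene kept its direction in each alternative that gave it a value, and 31 kept the same call in each. The authors had selected all of these genes on the same samples, so this stability is not independent evidence of a response. Requiring a value of at least 1 in at least 3 samples left 1 receptor lower instead of 3, because Unc5cl and Unc5d were no longer tested. Leaving out each sample in turn gave 21 to 25 guidance genes higher and 11 to 12 lower. Under median-of-ratios scaling the median of all listed genes moved from -0.42 to -0.18, and under quantile normalization to -0.31. Both rest only on the genes the authors selected as changed, while median-of-ratios scaling assumes that most genes are unchanged. Its factors were 1.11 to 1.20 in DMSO and 0.89 to 0.92 in PD. These fits therefore cannot decide which scaling is right. Pseudocounts of 0.1 and 5 change the size of differences of low genes by construction. Samples with the same number did not deviate together (correlations -0.0318, -0.00522 and -0.00129), and with the replicate number as a block 24 guidance genes were higher and 11 lower, with Plxna1 (adjusted p = 0.0607) and Efnb3 (0.0526) not called. The unknown depth limits what can be read from the 19 genes with both group means under 5, and rounding adds to this for the lowest values.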
